A study of Homo sapiens with 8 samples.

Results

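The RFX transcription factor family and the RFX5 complex comprised 10 genes here: RFX1 to RFX8, and RFXANK and RFXAP, which encode the partners of RFX5. They were chosen by name, and each was searched for RFX7 ChIP-seq peaks with a summit (the position of highest signal) within 50 kb of either end of the gene. All 10 were found among 20033 protein-coding genes placed on chromosomes in the RefSeq annotation. A single entry of each peak list met the rule, 1 of 505 after DMSO and 1 of 622 after Nutlin-3a, and both lay at RFX5. Thus 1 of 10 members had a summit in either list, while over all coding genes the share was 2.03% for DMSO and 3.03% for Nutlin-3a. The remaining 9 genes, including RFX7 itself, had no entry in either list.

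The samples were HCT116 cells, an established human colorectal carcinoma line, kept for 24 h in 10 µM Nutlin-3a or in its solvent DMSO. Nutlin-3a blocks MDM2 and thereby stabilises p53. Each treatment had 2 libraries precipitated with an RFX7 antibody and 2 input libraries, 8 in all, and the authors deposited a peak list for each treatment. The lists hold neither replicate values nor library depths, so none of the values below carries a replicate error, and the lists were compared with each other only by position. Fold enrichment, −log10 p and −log10 q are the authors' own values for each peak and place a peak within its own list.

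RFX proteins bind the X-box, a DNA element made of 2 facing arms, through a winged-helix domain. Most members also carry a dimerisation region, which RFX5 and RFX7 lack. RFX5 joins RFXANK and RFXAP in the complex that occupies the X-box of MHC class II promoters beside NF-Y and CREB1, and loss of any of the 3 subunits causes bare lymphocyte syndrome, an immunodeficiency. RFXANK and the related ankyrin repeat protein ANKRA2 can also bind RFX7. The question was whether RFX7 was found at its own gene, at its paralogues or at the regulators of MHC class II.

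RFX7 was found at the promoter of RFX5, the DNA-binding subunit of the complex, with and without Nutlin-3a. RFX5 (gene ID 5993) is annotated on the minus strand of chromosome 1, from 151340640 to 151347252 in GRCh38. The DMSO peak covered 151347051 to 151347535 (485 bp) with its summit at 151347328, which is 76 bp before the annotated start of the gene. The Nutlin-3a peak covered 151347083 to 151347622 (540 bp) with its summit at 151347273, 21 bp before the start. Both summits therefore lay in the promoter, outside the RFX5 transcript. The peaks overlapped over 453 bp, or 93.4% of the DMSO peak and 83.9% of the Nutlin-3a peak, and their summits were 55 bp apart.

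The 250 bases before the RFX5 start are shown because both summits fall in them, with the 41 bases centred on each summit. They were taken from RefSeq (GRCh38.p14) and are written 5′ to 3′ on the strand of the gene. The promoter stretch is chr1:151347253-151347502, and its capitals mark GTTGC, the core shared by X-box arms, and CCAAT, the letters of the NF-Y box, on either strand. Around the DMSO summit the bases are chr1:151347308-151347348, and around the Nutlin-3a summit chr1:151347253-151347293, each with the summit base in capitals.
RFX5 promoter: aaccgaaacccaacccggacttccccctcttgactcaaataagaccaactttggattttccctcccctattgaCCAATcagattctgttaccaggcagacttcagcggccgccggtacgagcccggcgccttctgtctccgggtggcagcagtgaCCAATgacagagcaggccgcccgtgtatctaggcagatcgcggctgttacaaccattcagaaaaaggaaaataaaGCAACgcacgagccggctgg
DMSO summit: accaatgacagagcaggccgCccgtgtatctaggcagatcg
Nutlin-3a summit: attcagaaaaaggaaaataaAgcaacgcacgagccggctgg

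The Nutlin-3a summit was the base next to a GTTGC core, which was read on the opposite strand at positions -20 to -16 from the start. The DMSO summit was 56 bp from that core and 15 bp from the nearer of 2 CCAAT matches (positions -95 to -91, the other at -177 to -173). A further GTTGC lay inside the transcribed part, at 151347177 to 151347181, and both peaks covered it. In both cores the next 2 bases were TT, so neither was GTTGCCA or GTTGCTA, the 7-base arms searched. These matches describe the letters and do not show which were bound.

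**Figure D1:**
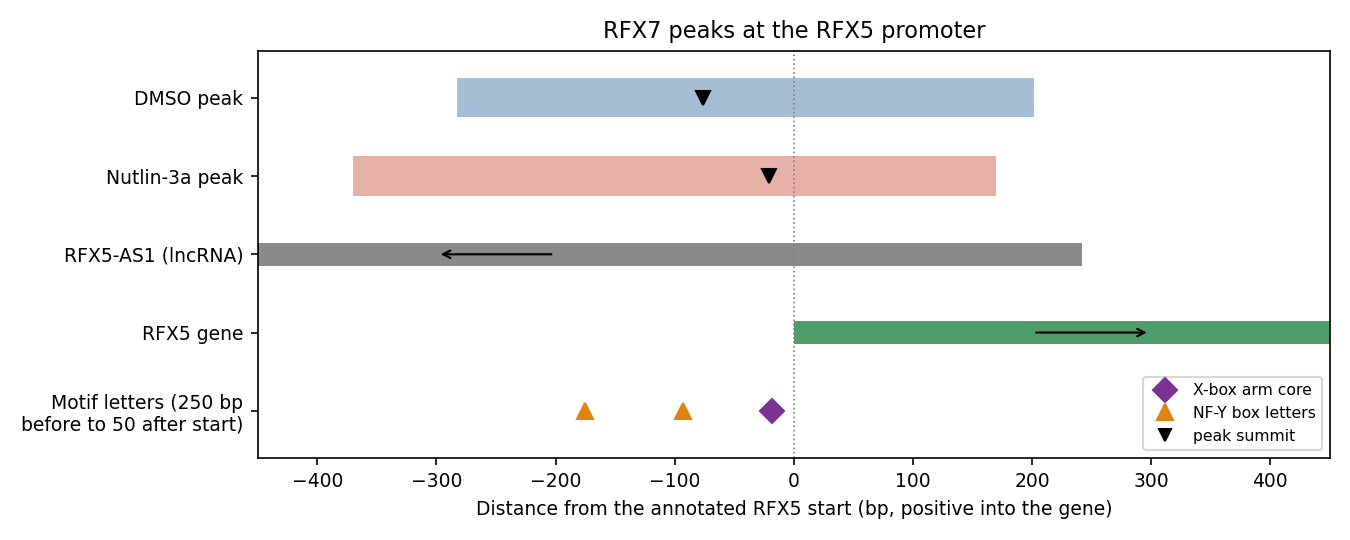
RFX7 peaks at RFX5, drawn by distance from the annotated RFX5 start in bp (positive into the gene). Bars are the DMSO and Nutlin-3a peaks and the RFX5 and RFX5-AS1 genes (arrows give the direction of transcription, and RFX5-AS1 and RFX5 run past the edges), triangles pointing down are the summits, and the lowest row gives the motif letters found in the window of the outermost start. Both summits lie before the start, at 76 and 21 bp, the second next to the X-box arm core.

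RFX5 was the nearest coding gene to both summits. The long non-coding gene RFX5-AS1, which runs in the opposite direction from 151347010 to 151347891, contained both summits. They lay 318 bp (DMSO) and 263 bp (Nutlin-3a) from its start. The other coding genes with an end within 50 kb were SELENBP1, about 17 kb away (16.98 and 17.03 kb), and PI4KB, at 19.6 kb from either summit. The summits were thus inside RFX5-AS1 and in the promoter of RFX5, and position alone cannot assign them to either gene.

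By fold enrichment, the RFX5 peaks were among the strongest gene-proximal entries of their lists. In the DMSO list the authors gave the peak an 8.51-fold enrichment with −log10 q at 29.6, which was place 29 of 505 by fold. In the Nutlin-3a list the enrichment was 20.1-fold with −log10 q at 124, place 12 of 622. Among entries with a summit within 5 kb of a coding gene end, it ranked 17 of 154 and 9 of 204, where the median fold enrichment was 4.26 and 4.79 and the highest 19.3 and 32.3. By −log10 p the places were further down, at 188 of 505 and 68 of 622 in the whole lists. Places by −log10 p among gene-proximal entries were not computed. There too the 2 measures can differ: in the DMSO list PNRC2, at 6.34-fold, had a −log10 p of 199, against 34.9 for RFX5. The lists differ in length and their depths are unknown, so these values give no direction of change between the treatments.

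**Figure D2:**
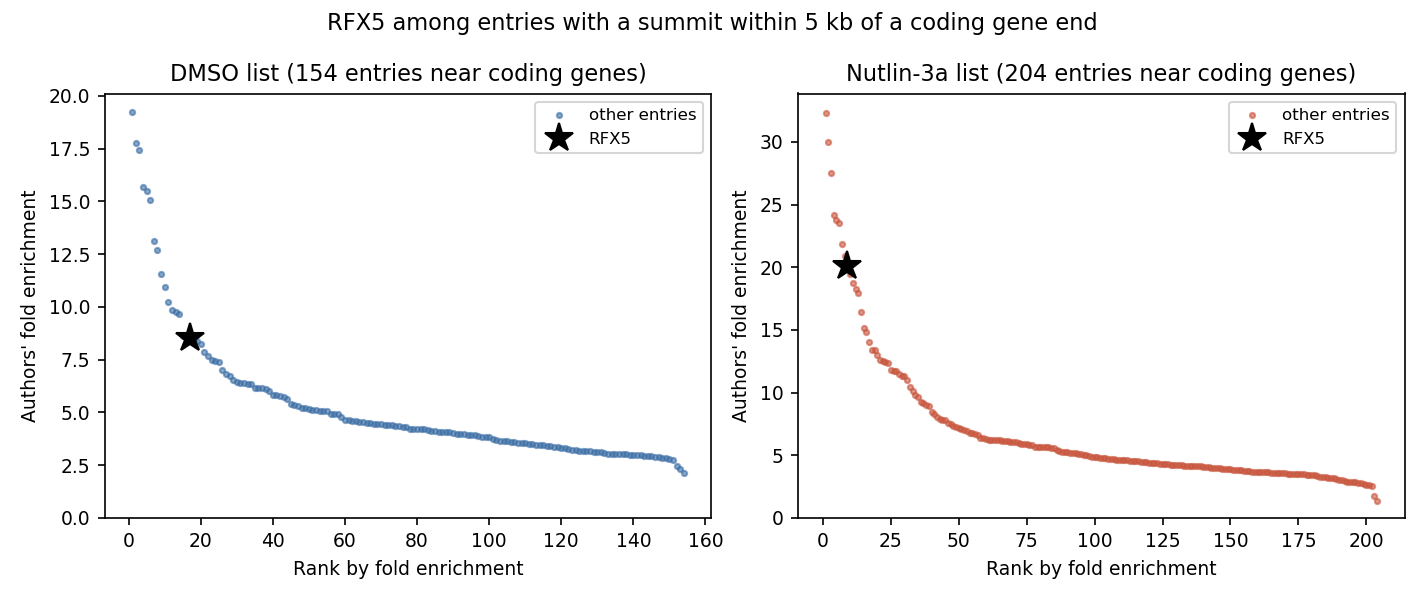
Fold enrichment, as deposited by the authors, against rank for gene-proximal entries (154 in the DMSO list, 204 in the Nutlin-3a list), meaning a summit within 5 kb of a coding gene end. Each point is 1 entry and the star is RFX5, at 8.51 (rank 17) in the DMSO list and 20.1 (rank 9) in the Nutlin-3a list. Scales differ between the panels.

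Read as statistics of the peak caller MACS2, the DMSO values fitted a whole number of reads. A fold enrichment of 8.51 with a −log10 p of 34.868 corresponds to 54 extended reads over the summit against a local background of 5.46. The lowest background solved for any DMSO entry at least 150 bp wide was 5.27. Of the 401 DMSO entries of any width that were solved, 48 had a background at or below that of RFX5, and the median was 33.5. For the Nutlin-3a peak no whole number solved both values (132.69 reads by interpolation). Its fold enrichment and rank are therefore less certain, as for the other entries without such a solution. Whole numbers solved 79.4% of the DMSO list and 64.1% of the Nutlin-3a list. A place by fold also depends on the values of the other entries, so the DMSO places of RFX5 are less certain too.

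The RFX5 summits lay close to the gene end. Among gene-proximal entries the median distance was 810 bp (DMSO) and 565 bp (Nutlin-3a), against 76 and 21 bp for RFX5. Of the 154 DMSO entries, 16 (RFX5 included) lay within 76 bp, and of the 204 Nutlin-3a entries, 8 lay within 21 bp. The peaks were also wider than the median gene-proximal peak, at 485 against 251 bp and 540 against 319 bp.

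The genes whose entries were closest to RFX5 in rank were taken within each list. Likeness here is the place by fold enrichment among gene-proximal entries, and the values in brackets are that enrichment. In the DMSO list they were TSPYL1, of the nucleosome assembly protein family (8.62), and CKAP2, a microtubule-associated protein (8.60), above, and PDCD4, an inhibitor of translation (8.44), and MKNK2, a kinase of the translation factor eIF4E (8.41), below. In the Nutlin-3a list they were RAP2A, a small GTPase (21.8), and TOB2, an antiproliferative factor (20.9), above, and RCL1, a factor of ribosomal RNA processing (19.5), and CKS2, a subunit of cyclin-dependent kinases (18.8), below.

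RFX7 itself, the target of the antibody, had no peak near its gene. RFX7 (gene ID 64864) lies on chromosome 15 from 56087280 to 56245082. The nearest summit was 36.3 Mb away in the DMSO list, where the entry had a fold enrichment of 1.55. That entry lay 505832 bp from the nearest coding gene end. In the Nutlin-3a list the nearest summit was 3.41 Mb away. There the entry had a fold enrichment of 4.03 and its nearest coding gene was ATOSA, at 30392 bp. No summit lay between the ends of RFX7 in either list.

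The other members of the RFX5 complex had no peak within 50 kb. RFXANK, the ankyrin repeat subunit, on chromosome 19, had its nearest summit 184 kb away in both lists. That entry lay at GATAD2A, a subunit of a chromatin remodelling complex, 192 bp (DMSO) and 265 bp (Nutlin-3a) from its end, with fold enrichments of 4.22 and 4.26. RFXAP, the accessory subunit, on chromosome 13, had its nearest summit 7.61 Mb away in both lists, near TSC22D1.

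The dimerising paralogues had no peak within 50 kb either. RFX6, which directs the development of pancreatic islets, came closest, with a summit 597 kb (DMSO) and 598 kb (Nutlin-3a) away that lay at TSPYL1. RFX1, a widely expressed member, had its nearest summit 807 kb away in both lists, at IER2. For RFX2 and RFX3, regulators of ciliary genes, the distances were 1.72 and 1.23 Mb (RFX2, DMSO and Nutlin-3a) and 1.27 Mb in both lists (RFX3, at RCL1). RFX8 was 6.84 Mb (DMSO) and 6.89 Mb (Nutlin-3a) from the nearest summit, in entries only 50 and 53 bp wide. RFX4, a factor of brain development, was 13.1 Mb away in both lists, from an entry at UBE2N.

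Over all coding genes, 1.7% had a summit within 50 kb in both lists, as RFX5 did. Within 5 kb the shares were 0.764% (DMSO) and 1.08% (Nutlin-3a), and RFX5 was again the only member. With 10 genes, 1 gene is the smallest count above 0, so the share of members says little beyond RFX5. The median distance from a member to the nearest summit was 1.49 Mb (DMSO) and 1.25 Mb (Nutlin-3a), against 4.51 and 2.96 Mb over all coding genes. An absent entry means that the authors' list holds no peak there. Whether a threshold or another step of their processing left it out is not known. Weaker binding was not detectable from these lists.

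**Figure D3:**
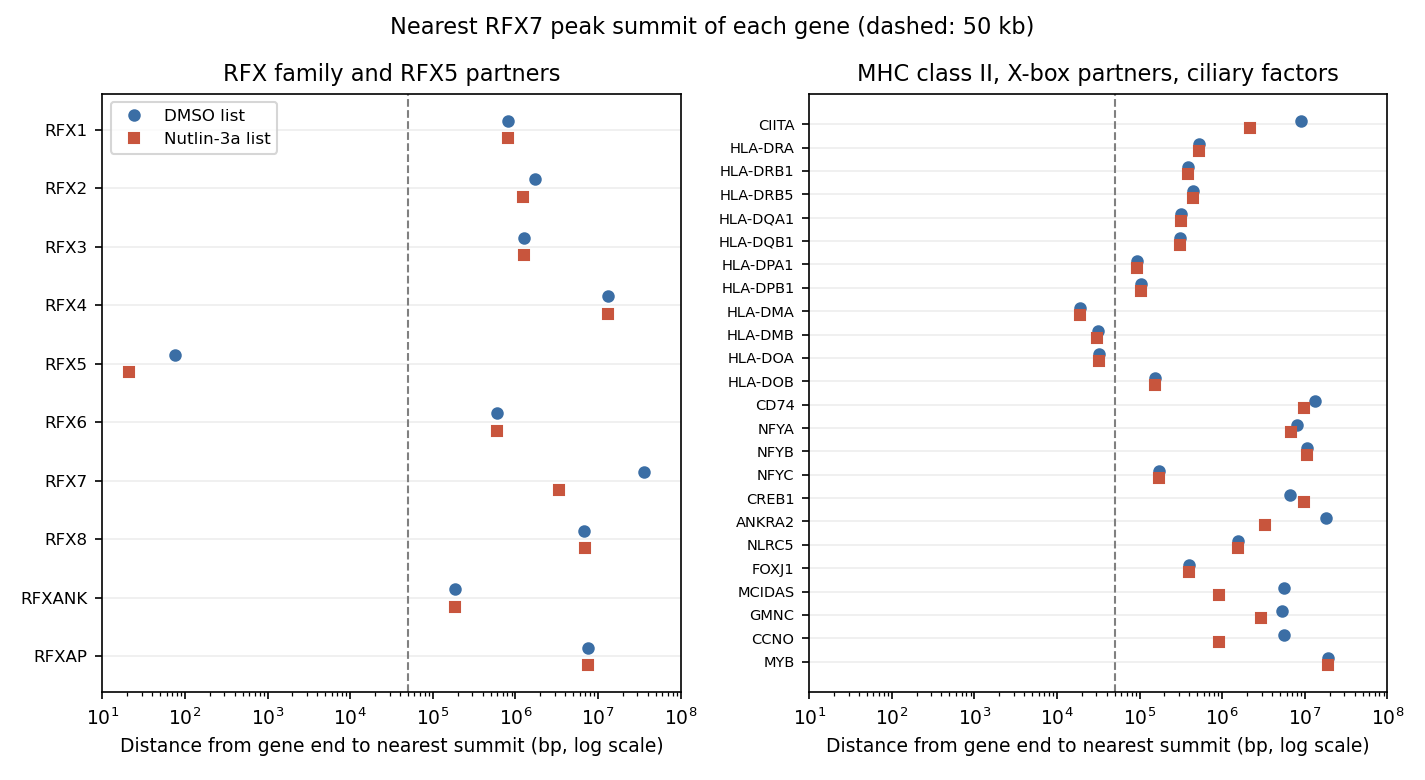
Distance in bp (log scale) from the nearer gene end to the nearest summit in the DMSO list (circles) and the Nutlin-3a list (squares), for the RFX genes and RFX5 partners (left) and for genes of MHC class II, X-box partners and ciliary factors (right). The dashed line is 50 kb. RFX5 lies at 76 and 21 bp, all other members lie beyond the line, and HLA-DMA, HLA-DMB and HLA-DOA lie inside it.

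Promoter windows (250 bases before to 50 after a start) were at hand for 7 of the 10 members, 15 windows in all, as several genes have more than 1 start. RFX2, RFX6 and RFX8 had none. Summits fell in the window of the outermost RFX5 start and in no other member window. The arms GTTGCCA or GTTGCTA, on either strand, occurred in windows of RFX1 and RFX4, and in 6.75% of all 35116 windows. The core GTTGC, which every such arm contains, occurred in windows of 5 members (RFX1, RFX4, RFX5, RFX7 and RFXANK) and in 33.6% of all windows.

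Among member windows, the letters closest to a full X-box lay in windows without a peak. They are shown with the RFX7 site, for comparison with RFX5. Capitals mark both facing arms in RFX4 (chr12:106601129-106601158, plus strand), each GTTGC core in RFX1 (chr19:14006306-14006334, minus strand), and GTTGC and CCAAT in RFX7 (chr15:56245159-56245187, minus strand), on either strand and from RefSeq GRCh38.p14.
RFX4: cctgtggcGTTGCCATGGCAACccactgac
RFX1: gggtgggtaGCAACaGTTGCcccggtgag
RFX7: ctcaaaggccagGCAACccaagCCAATca

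At the second of 3 annotated starts of RFX4, the letters formed a full pair of facing arms (GTTNCC followed by GGNAAC with 0 to 3 bases between), from position -11 to 3. Such a pair was found in 0.740% of all windows and in no other member that had a window. RFX1 had cores on both strands across its start, from -5 to -1 and from 2 to 6, without the facing order of the pair. RFX7 had a core at -93 to -89 and CCAAT at -83 to -79. None of these 3 genes had an entry in either list.

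**Figure D4:**
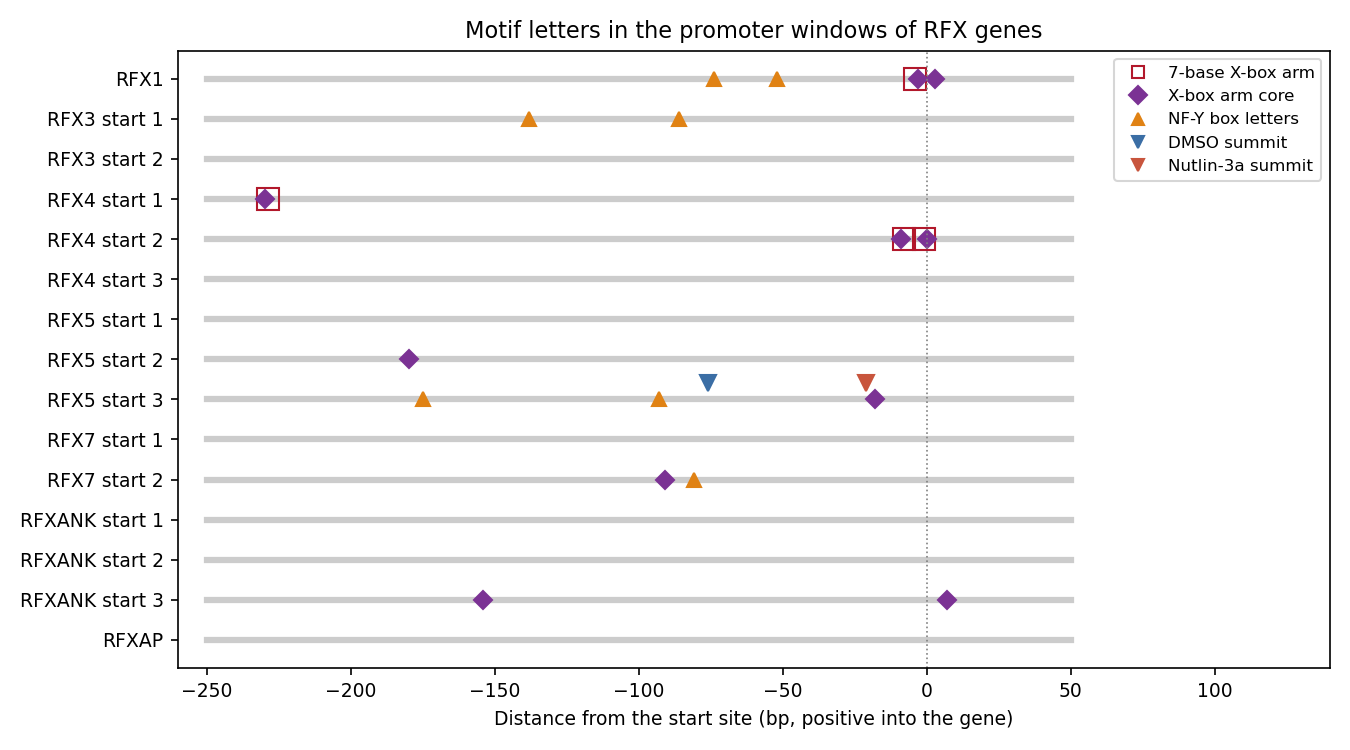
Letters of X-box arms and of the NF-Y box in the 15 promoter windows of the members, by distance from each start in bp; starts are numbered by genome position. Open squares are GTTGCCA or GTTGCTA, diamonds the core GTTGC, triangles CCAAT, and the inverted triangles are the summits, which fall only in the window of RFX5 start 3. RFX4 start 2 holds the facing pair and no summit.

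Windows that held a summit carried the core more often than windows overall. In the DMSO list 38 of 47 such windows had GTTGC (80.9%, 95% Wilson interval 67.5 to 89.6%), and in the Nutlin-3a list 65 of 90 (72.2%, 62.2 to 80.4%). RFX5 belonged to this majority in both lists. Windows of a gene can overlap, so these intervals cover counting error only. From summit to the middle of the nearest GTTGC the median was 31 bp in the DMSO list and 43 bp in the Nutlin-3a list. RFX5 was at 58 bp in the first and at 3 bp in the second. A summit counted once for each window that held it. In the DMSO list 32 of 38 such counts were as close as that of RFX5 or closer. For Nutlin-3a this number was 4 of 65.

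The MHC class II genes and the invariant chain CD74, on which the RFX5 complex acts, were examined in a list of 13 with CIITA, the coactivator that the complex recruits. In each list 3 of the 13 had a summit within 50 kb, HLA-DMA at 18.9 kb (DMSO) and 18.8 kb (Nutlin-3a), HLA-DMB at 30.9 kb, and HLA-DOA at 32.2 and 32.3 kb. These encode proteins of peptide loading, and all 3 owed the count to the same entry, so they are not 3 separate counts to set beside the 2.03% and 3.03% of all coding genes. It lay on chromosome 6 from 32971680 to 32972176 in the DMSO list and from 32971633 to 32972172 in the Nutlin-3a list, inside BRD2, a chromatin reader, and 3.38 and 3.33 kb from its nearer end. Its fold enrichment was 6.33 (rank 56) and 13.0 (rank 27). HLA-DRA was 527 kb from this entry, and CIITA was 9.04 Mb (DMSO) and 2.19 Mb (Nutlin-3a) from any summit. Within 5 kb, none of the 13 had a summit, where 0.764% and 1.08% of all coding genes did.

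The 6 X-box partners, which are the NF-Y subunits NFYA, NFYB and NFYC, CREB1, ANKRA2 and the MHC class I coactivator NLRC5, had no summit within 50 kb in either list. NFYC came nearest, at 173 kb in both lists. Of 5 factors that act with RFX proteins on ciliary genes (FOXJ1, MCIDAS, GMNC, CCNO and MYB), none had one, and FOXJ1 came nearest at 400 kb. With 2.03% and 3.03% of all coding genes that near to a summit, counts of 0 among 6 and 5 genes do not set these lists apart.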

How the data were processed

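Peak lists in narrowPeak layout were deposited by the authors, 1 per treatment, with no values per replicate. The submitters' processing notes name build hg38, MACS2 2.2.7.1 and bedtools 2.29.2 without a role, and whether replicates were pooled is not given in the sources used here. The authors deposited a fold enrichment (ratio), −log10 p and −log10 q per peak, and a score equal to −log10 q multiplied by 10 and truncated (503 of 505 entries in the DMSO list, 621 of 622 in the Nutlin-3a list). Entries reached down to −log10 q of 1.31 (DMSO) and 1.36 (Nutlin-3a). Depth per sample is unknown.

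From these, distances from each summit to both ends of protein-coding genes (RefSeq, GRCh38.p14) were computed in Python 3.11.15 with pandas 2.3.3. Overlap meant at least 1 bp. Pileup was solved from fold enrichment and −log10 p under MACS2's formulas (whole within 0.02 reads). Motif letters were searched on both strands. Distances, pileup and motif search were tested on simulated data. No test between treatments was made. The members and lists were chosen with earlier results of these data known. Named genes were the members, the 2 gene-proximal entries on either side of RFX5 in rank, list genes with a summit within 50 kb (otherwise the nearest), and nearer neighbours. The NF-Y letters CCAAT, and the X-box letters GTTGCT or, alone, GTTGCTA, were searched after the data were examined. Alternatives for distance, threshold, summit, overlap, ranking and letters were tried.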

Additional observations from a re-analysis of the deposited data

How the results depend on the processing

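No paired analysis was possible because the peak lists hold nothing per replicate, and for the same reason no replicate was left out. Alternatives gave 86 values, of which 71 stayed close to those reported and 15 moved. Many of the 71 could not have moved, so this tally is no measure of robustness. Counts of 0 for X-box partners and ciliary factors could not rise at the distances and thresholds tried. Their nearest summits were 173 kb (NFYC) and 400 kb (FOXJ1) away in both lists. RFX5 was the single member with a summit at every distance (5, 10, 20 and 100 kb), threshold (−log10 q of at least 5 or 10) and position rule tried, and its peaks were shared under both other overlap rules. The distances and thresholds could not change this count. RFX5 summits lay at 76 bp (DMSO) and 21 bp (Nutlin-3a), with −log10 q of 29.6 and 124. The next nearest member, RFXANK, was 184 kb from a summit in both lists. In both lists the MHC class II count of 3 fell to 0 at 5 and 10 kb and to 1 at 20 kb. The RFX5 rank, as a percentage of entries at or above it, was 5.74 in the DMSO list and became 37.2 by −log10 p, 9.01 among entries with −log10 q of at least 10 and 11 among gene-proximal ones. In the Nutlin-3a list it was 1.93 and became 10.9 by −log10 p and 4.41 among gene-proximal entries. Among the 7 members with a promoter window, those with an X-box arm numbered 2 (GTTGCCA or GTTGCTA) and 1 with GTTGCCA alone. They numbered 5 with GTTGC, 1 with the facing pair and, chosen after seeing the data, 4 with GTTGCT. Unknown depth limits every absence.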

Other observations

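The members' windows differed in which letters followed the core. Both RFX5 cores read GTTGCT, and the Nutlin-3a summit was itself a base of the outer match. These letters occurred in 53.2% of the 47 DMSO windows with a summit (95% Wilson interval 39.2 to 66.7%) and in 41.1% of the 90 Nutlin-3a windows (31.5 to 51.4%), against 12.8% of all windows. GTTGCT was chosen after the data were examined, and the windows with a summit include that of RFX5. The intervals cover counting error only. RFX1, RFX4 and RFXANK also had GTTGCT, without an entry.

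The arm of the RFX4 pair, GTTGCCA, occurred in 0 of 47 DMSO windows with a summit, so a share as high as 6.38% (3 counts) remains possible, and in 6 of 90 Nutlin-3a windows (6.67%, 3.09 to 13.8%). In all windows it occurred in 4.08%, which both limits include. GTTGCTA occurred in 27.7% of the DMSO windows (16.9 to 41.8%) and 16.7% of the Nutlin-3a windows (10.4 to 25.7%), against 2.85% of all windows. These letters were chosen after the data were examined, and the intervals cover counting error only.

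CCAAT, which RFX5 held at 2 places, occurred in 85.1% of DMSO windows with a summit (72.3 to 92.6%) and 74.4% of Nutlin-3a windows (64.6 to 82.3%), against 34.6% of all windows. CCAAT and GTTGC stood together in 66% and 51.1% of the windows with a summit and in 12.4% of all windows. Among members they stood together in windows of RFX1, RFX5 and RFX7, of which RFX5 alone had a summit. Promoters that are rich in such letters for other reasons were not separated here. CCAAT was likewise chosen after the data were examined, and its intervals cover counting error only.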
